A study of Arabidopsis thaliana with 16 samples.

Results

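The sorbitol response of seu-6 was measured by setting 2 RNA-seq libraries of seu-6 seedlings kept in sorbitol against 2 libraries of seu-6 seedlings kept in the same medium without it. These 4 libraries were chosen by their labels, out of 16 in the series. seu-6 is a mutant of SEUSS (SEU), a transcriptional co-regulator of Arabidopsis thaliana, and Col-0 is the wild type. The 4 groups of the sorbitol experiment were seu-6 in liquid 1/2 MS medium with 250 mM sorbitol for 6 h, seu-6 in liquid 1/2 MS medium alone for 6 h (mock), and the same sorbitol and mock treatments of Col-0. All 4 held whole seedlings aged 10 days, grown under 16 h of light and 8 h of dark, with 2 biological replicates each. A second experiment, in seedlings aged 14 days with 300 mM NaCl or mock for 15 min, supplied 2 seu-6 NaCl and 2 seu-6 mock libraries for comparison. The title of the series is about SEUSS condensates in plants under hyperosmotic stress. The comparison described here answers how seu-6 transcripts respond to 6 h of sorbitol, and how that response differs from that of Col-0. The mutant was examined in 1 allele, and the labels do not describe the lesion.

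Sorbitol outside the root lowers the water potential of the medium, and plant cells answer by making the hormone abscisic acid (ABA). ABA binds receptors of the PYR/PYL family, which then inhibit clade A protein phosphatases (PP2Cs). This frees SnRK2 kinases to activate bZIP factors of the ABF family, which bind the ABRE element of target promoters. Targets include dehydrins and other late embryogenesis abundant (LEA) proteins that protect dehydrating cells, and enzymes that make proline and raffinose as compatible solutes. Growth, cell division and ribosome production are known to slow under the same stress.

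SEU transcripts were low in the seu-6 libraries at 6 h and showed no detected change with sorbitol. SEU was at 0.651 and 0.421 CPM (read counts divided by the scaled library size, in the usual CPM unit) in seu-6 sorbitol, against 0.650 and 0.502 CPM in seu-6 mock. In Col-0, SEU was at 56.2 and 57.1 CPM under sorbitol and 56.4 and 53.0 CPM in mock. The log2 fold change of SEU with sorbitol in seu-6 was -0.11 ± 0.284 (edgeR adjusted p = 0.78). The SEU relatives SLK1 and SLK2, whose products are related co-regulators, rose in seu-6. SLK1 was at 75.6 and 78.6 CPM in seu-6 sorbitol, against 49.7 and 53.4 CPM in seu-6 mock (log2 fold change 0.58 ± 0.0511, adjusted p = 2.0e-15). SLK2 rose by 0.47 ± 0.0545 (adjusted p = 3.4e-11). The partner gene LUH fell slightly (-0.11 ± 0.0336, adjusted p = 0.0027). LUG was at 75.0 and 72.0 CPM under sorbitol and at 77.7 and 81.2 CPM in mock, with an adjusted p of 0.045 that passed 0.05 in edgeR but was 0.14 with DESeq2.

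The 4 seu-6 libraries held between 39756463 and 41535339 reads in genes. The replicate pairs differed by an SD per library of 0.098 on the log2 scale in seu-6 sorbitol and 0.116 in seu-6 mock. By another measure the mock pair differed more than any other pair. A chi-square of each pair's counts against shares set by library size was 8.74 per gene in seu-6 mock. It was 3.28 per gene in seu-6 sorbitol and between 3.64 and 4.65 in the other groups of the series. Reads outside the gene counts were 10.82% and 11.45% in seu-6 sorbitol, against 12.74% and 9.282% in seu-6 mock, where replicate 1 stood apart. Leaf and root markers of the labelled tissue, whole seedling, were present in all 4 libraries. The summed level of 22 light-harvesting and Rubisco genes was 85470 and 84100 CPM in seu-6 sorbitol and 65560 and 65000 CPM in seu-6 mock. That of 17 root tissue genes was 164 and 165 CPM under sorbitol and 149 and 152 CPM in mock, and none of the 17 was at 0. Stomatal and guard cell genes summed to 83.7 and 85 CPM under sorbitol and 85 and 83 CPM in mock. That level sum hid opposite changes among its 7 genes. The guard cell gene KAT1 rose (log2 fold change 1.22 ± 0.0764). SPCH (-0.89 ± 0.104), MYB60 (-0.65 ± 0.0984), EPF2 (-1.27 ± 0.245) and MUTE (-0.72 ± 0.316) fell, and the median of the 7 was -0.65. Shoot meristem genes summed to 15.47 and 18.16 CPM under sorbitol and 16.61 and 14.76 CPM in mock, with WUS listed at 0 in all 4. The part of tissue proportions in the results was not tested, and in whole seedlings fewer cells of a type and less RNA per cell cannot be told apart.

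Both seu-6 mock libraries of the 6 h experiment also stood apart from all others in transcripts of seed reserves. The summed level of 7 seed storage and oleosin genes was 3.78 and 3.67 CPM in seu-6 sorbitol, against 137 and 134 CPM in seu-6 mock. In Col-0 it was 5.19 and 5.91 CPM under sorbitol and 2.38 and 2.35 CPM in mock. In the 15 min experiment, whose CPM were scaled separately, the 2 seu-6 NaCl libraries held 1.12 and 0.672 CPM and the 2 seu-6 mock libraries 2.13 and 2.08 CPM. The cruciferin gene CRA1, which encodes a 12S storage globulin, was at 0.990 and 0.917 CPM in seu-6 sorbitol and at 59.6 and 58.5 CPM in seu-6 mock. CRU2, for another cruciferin, had no count in either sorbitol library and was at least 205-fold lower there than in mock, against a floor of 3 counts per library. The seed albumin gene SESA3, outside the 7, had no count there either and was at least 353-fold lower. All 7 genes were called lower, so 4 of the 12 steepest falls named below (SESA3, CRU2, CRU3, CRA1) are seed storage genes. The difference from the response of Col-0 was called for 4 of the 7. The other 3, CRU2, CRU3 and OLEO1, had no count in any Col-0 library at 6 h. For these the test of the difference could not give a call, so its absence says nothing about the genotypes. Why the seu-6 mock held these transcripts was not tested.

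**Figure D1:**
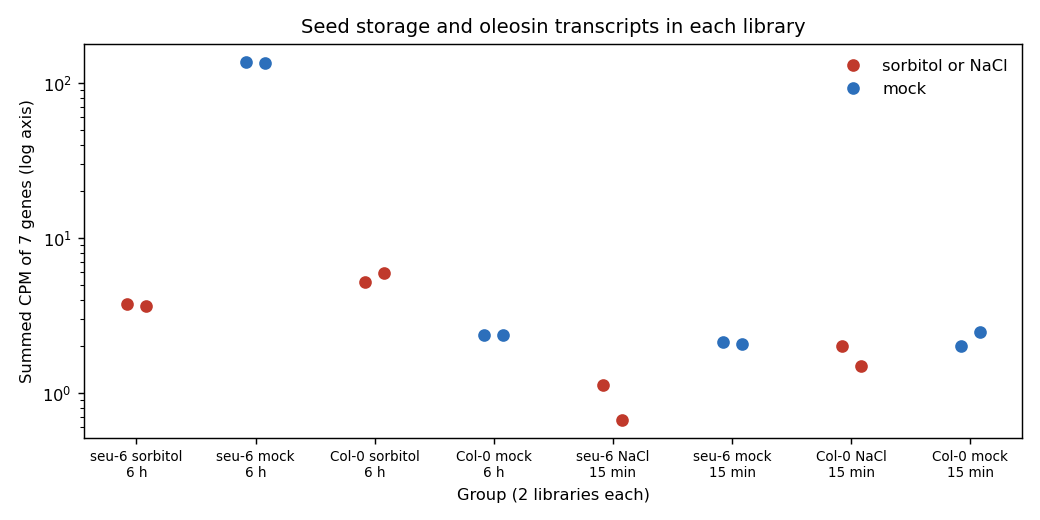
Summed CPM of 7 seed storage and oleosin genes in each of the 16 libraries on a log axis, with 1 point per library and CPM scaled within each experiment. The seu-6 mock libraries of the 6 h experiment lie at 137 and 134 CPM, and the seu-6 sorbitol libraries at 3.78 and 3.67 CPM.

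Sorbitol changed a large share of the measured transcriptome of seu-6, mostly by small amounts. Of 21633 genes tested with edgeR, 6255 (28.9%) were called higher and 6284 (29.0%) lower, where a call is a Benjamini-Hochberg adjusted p under 0.05. The median log2 fold change was 0.52 among genes called higher, -0.53 among those called lower, and -0.0044 over all genes tested. Beyond 2-fold, 1398 genes rose and 1235 fell. Beyond 8-fold, 196 rose and 149 fell. Both sorbitol values lay above both mock values for 6237 of the 6255 genes called higher, and below them for 6270 of the 6284 called lower. Without any test, 38.4% of all genes lay entirely above and 39.2% entirely below. The adjusted p sets the difference between groups against the spread between the 2 replicates of a group. That spread is estimated jointly from the 8 libraries at 6 h and moderated between genes. Standard errors (SE, given after ±) rest on the same pooled spread. The shares of 28.9% and 29.0% are the background against which the counts of each gene group are read.

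The 12 steepest rises included 3 late embryogenesis abundant protein genes and 2 phosphatase genes of ABA signalling. LEA7, a late embryogenesis abundant protein gene, was at 88.3 and 84.8 CPM in seu-6 sorbitol, against 0.169 and 0.334 CPM in seu-6 mock (log2 fold change 8.41 ± 0.176, adjusted p = 1.9e-16). LEA4-5 was at 78.1 and 78.7 CPM under sorbitol, against 0.554 and 0.693 CPM in mock (6.97 ± 0.106, adjusted p = 2.5e-53). PUB19, a plant U-box gene, reached 40.2 and 43.7 CPM, against 0.385 and 0.406 CPM in mock (6.72 ± 0.127). Values that do not overlap were a condition for entering the 12. Also among the 12 steepest rises were the LEA family gene AT3G17520, the von Willebrand factor A domain gene AT5G50360, the cold-regulated protein gene AT3G03341, the mannose-binding lectin gene AT5G28520 (6.17 ± 0.178), the uncharacterized AT3G27250 and the heat shock factor gene HSFA6B. For 4 of these the fold rests on few mock counts and moves with the mock library kept. AT3G27250 was at 25.9 and 29.6 CPM under sorbitol, against 0.0241 and 0.191 CPM in mock, a log2 fold change of 7.97 ± 0.204 that was 7.16 without mock replicate 1 and 10 without mock replicate 2. AT3G17520 was at 14.7 and 12.6 CPM, against 0.0241 and 0.167 CPM in mock (7.11 ± 0.239, and 6.32 and 8.97 without mock replicates 1 and 2). AT3G03341 was at 6.72 and 6.99 CPM, against 0.0241 and 0.143 CPM in mock (6.30 ± 0.322, and 5.55 and 7.98 without mock replicates 1 and 2). In each of them both sorbitol values lay above both mock values, as the rule for the 12 required. HSFA6B was at 11.7 and 11.1 CPM, against 0.313 and 0 CPM in mock, and its log2 fold change of 6.16 ± 0.333 was 5.17 without mock replicate 2. Without mock replicate 1, where the mock library kept had no count of HSFA6B, the fit gave 11.9. AT5G50360 had 495 counts in the sorbitol libraries and 2 in the mock libraries, a ratio of 262 with a counting interval of 72.2 to 2170 at 95%. The rest of the 12 were RD29B and the phosphatase genes HAI1 and HAI2, described below.

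The 8 steepest falls outside the seed reserves included an ABA receptor gene. PYL6, the receptor, was at 3.18 and 2.35 CPM in seu-6 sorbitol, against 77.2 and 77.8 CPM in seu-6 mock (-4.81 ± 0.0926, adjusted p = 7.8e-48). AT4G21870, an HSP20-like chaperone gene, was at 4.76 and 5 CPM under sorbitol and at 118 CPM in both mock libraries (-4.59 ± 0.0705). MIOX2, a myo-inositol oxygenase gene on a route to cell wall sugars, was at 4.79 and 4.19 CPM, against 76.3 and 80.8 CPM in mock (-4.13 ± 0.0849, adjusted p = 2.3e-46). The sorbitol values lay far below the mock values for all of them. The others of this set were the peroxidase gene AT5G19890 (-4.36 ± 0.188, with -5.06 and -3.87 without sorbitol replicates 1 and 2), the late embryogenesis abundant gene AT2G41990 (-4.12 ± 0.165), the bHLH gene AT2G43140 (-4.07 ± 0.0988), the phosphate-responsive PHI-1 (-3.75 ± 0.167) and the DUF1005 gene AT1G50040 (-3.72 ± 0.223).

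All 25 listed ABA and dehydration effector genes were called higher in seu-6, against a background of 28.9%. Their median log2 fold change was 3.25, or 3.17 with EM1 set at its bound of at least 6.63-fold, against -0.0044 over all genes. RD29B (LTI65 in the reference, AT5G52300), a classical ABA reporter gene, was at 223 and 213 CPM in seu-6 sorbitol, against 0.746 and 0.860 CPM in seu-6 mock (8.08 ± 0.0820, adjusted p = 6.2e-61). Its neighbour RD29A (LTI78, AT5G52310), which drought, cold and salt all induce, was at 2386 and 2301 CPM under sorbitol, against 205 and 212 CPM in mock (3.49 ± 0.0324, adjusted p = 9.2e-65). The dehydrin gene RAB18 (AT5G66400) was at 150 and 145 CPM, against 2.98 and 2.15 CPM in mock (5.84 ± 0.0734, adjusted p = 1.1e-56). Sorbitol and mock values were fully apart for each. The caleosin gene RD20 (5.29 ± 0.0595), the lipid transfer protein gene LTP3 (5.06 ± 0.0726) and RD22 (3.25 ± 0.0349) rose as well. The smallest rise in the list was that of ERD1, for a chloroplast Clp protease regulator, at 572 and 555 CPM under sorbitol, against 354 and 356 CPM in mock (0.67 ± 0.0323). KIN1 and KIN2, COR15A and COR15B, and LTP3 and LTP4 are pairs of close copies whose split between copies is uncertain.

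Signalling genes moved in opposite directions at the receptor and at the phosphatase. Of 9 receptor genes 6 fell and 1 rose, with a median log2 fold change of -0.89, against backgrounds of 29.0% and 28.9%. PYL4 was at 23 and 22 CPM in seu-6 sorbitol, against 180 and 173 CPM in seu-6 mock (-2.97 ± 0.0511, adjusted p = 2.0e-50). PYL5 was at 12.7 and 11.8 CPM, against 98.9 and 103 CPM in mock (-3.04 ± 0.0646). PYR1 was at 33.3 and 33.7 CPM, against 139 and 134 CPM in mock (-2.03 ± 0.0533). These values did not overlap, and PYL1 (-0.89 ± 0.0907) and PYL8 (RCAR3, -0.28 ± 0.0432) fell by less. PYL7 was the single receptor called higher (0.45 ± 0.165, adjusted p = 0.018), a call lost when either sorbitol library or mock replicate 1 was left out. PYL2 (2.37 and 2.11 CPM under sorbitol, 2.82 and 3.03 CPM in mock) and PYL9 (RCAR1) were not called.

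Clade A PP2C genes, which encode the phosphatases that ABA-bound receptors inhibit, were called higher in 8 of 9 cases, with a median of 2.73. HAI1 was at 87.8 and 89.7 CPM in seu-6 sorbitol, against 0.891 and 1.65 CPM in seu-6 mock (6.12 ± 0.120, adjusted p = 2.8e-22). HAI2 was at 20.6 and 21.2 CPM, against 0.289 and 0.287 CPM in mock (6.17 ± 0.160). ABI1, named for the ABA-insensitive mutant, was at 293 and 294 CPM under sorbitol, against 65.6 and 67.1 CPM in mock (2.14 ± 0.0365, adjusted p = 1.2e-50). Each sorbitol value lay above each mock value. HAI3 had no count in mock and was at least 46.7-fold higher under sorbitol, at 3.80 and 2.92 CPM. PP2CA (2.73 ± 0.0418), HAB1 (2.54 ± 0.0473), ABI2 (3.36 ± 0.0771) and HAB2 (1.09 ± 0.0523) rose too, and AHG1, below 0.4 CPM in all 4 libraries, was not called (adjusted p = 0.097).

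**Figure D2:**
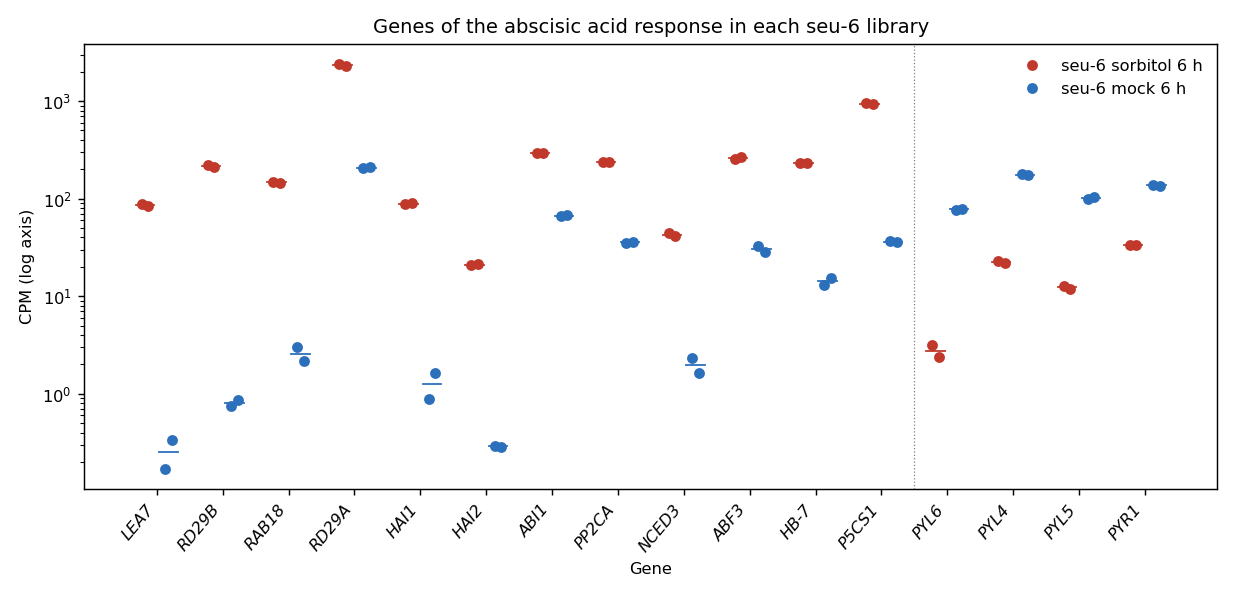
CPM on a log axis of 16 genes of ABA responses in each of the 2 seu-6 sorbitol and 2 seu-6 mock libraries (points) with their means (lines). The 12 genes left of the dotted line are higher under sorbitol and the 4 receptor genes right of it are lower, for example PYL4 at 23 and 22 CPM under sorbitol, against 180 and 173 CPM in mock.

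The upstream sequences of 5 genes at the ends of this pattern are shown so that copies of the ABRE, the element that ABF factors bind, can be seen where they occur. Each is the 250 bases before the annotated gene start in the TAIR10.1 genome of RefSeq, 5′ to 3′ on the gene's strand, with the ABRE core ACGTG, on either strand, in capitals. No other annotated gene reaches into these windows. RD29B lies on the plus strand at chr5:21236771-21237020, LEA7 on the plus strand at chr1:19619474-19619723, HAI2 on the minus strand at chr1:2282829-2283078, HAI1 on the minus strand at chr5:23896940-23897189 and PYL6 on the minus strand at chr2:16846195-16846444.
RD29B: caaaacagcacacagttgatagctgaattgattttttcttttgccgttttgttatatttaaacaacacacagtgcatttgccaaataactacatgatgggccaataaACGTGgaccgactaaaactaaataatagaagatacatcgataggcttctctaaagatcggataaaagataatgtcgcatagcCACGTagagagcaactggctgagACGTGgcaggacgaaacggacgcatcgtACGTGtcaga
LEA7: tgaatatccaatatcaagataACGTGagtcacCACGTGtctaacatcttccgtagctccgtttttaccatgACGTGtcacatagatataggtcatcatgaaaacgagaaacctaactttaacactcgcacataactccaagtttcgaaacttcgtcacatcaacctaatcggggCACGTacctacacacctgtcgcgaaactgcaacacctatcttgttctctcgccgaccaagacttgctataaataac
HAI2: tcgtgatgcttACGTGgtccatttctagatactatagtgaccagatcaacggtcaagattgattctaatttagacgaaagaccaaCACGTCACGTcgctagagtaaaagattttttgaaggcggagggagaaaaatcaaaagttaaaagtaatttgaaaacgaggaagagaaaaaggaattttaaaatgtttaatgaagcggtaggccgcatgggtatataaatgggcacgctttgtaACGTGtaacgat
HAI1: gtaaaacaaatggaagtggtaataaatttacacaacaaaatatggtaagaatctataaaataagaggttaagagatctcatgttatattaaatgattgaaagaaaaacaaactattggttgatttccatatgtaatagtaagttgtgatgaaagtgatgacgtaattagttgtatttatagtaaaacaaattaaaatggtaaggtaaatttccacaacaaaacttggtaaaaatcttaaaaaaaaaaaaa
PYL6: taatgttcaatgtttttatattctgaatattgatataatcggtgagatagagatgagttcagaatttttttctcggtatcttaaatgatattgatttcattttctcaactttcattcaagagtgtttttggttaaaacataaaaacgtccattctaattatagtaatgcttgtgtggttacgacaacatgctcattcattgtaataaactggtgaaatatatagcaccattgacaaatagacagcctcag
The core occurs 4 times in the window of RD29B, 5 times in that of LEA7 and 4 times in that of HAI2, counting overlapping matches on both strands. It does not occur in the windows of HAI1 and PYL6, which says only that these letters are not in these 250 bases.

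Across promoters the core was more frequent the larger the rise, as a description with no test. ACGTG on either strand was in 30.2% of 6167 windows of genes called higher, in 39.7% of 1352 windows of genes called higher beyond 2-fold and in 54.5% of 189 beyond 8-fold, against 24.2% of all 20932 windows of protein-coding genes tested. The share was 21.2% of 6210 windows of genes called lower and 25.2% of 1194 called lower beyond 2-fold. The longer ABRE, ACGTGNC, was in 29.1% of windows beyond 8-fold higher and in 9.59% of all windows. The DRE core CCGAC, bound by DREB factors, was in 23.8% of windows beyond 8-fold higher and in 12.7% of all. The median GC content was 32.8% in the windows beyond 8-fold higher and 31.2% in all windows. Of the 25 effector genes 15 held the ABRE core and 10 the DRE core, of the 9 PP2C genes 6 and 2, and of the 9 receptor genes 2 and 0. The ABRE core and the longer form overlap by construction.

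Every one of the 10 listed SnRK2 kinase, ABF and related kinase genes was called higher, with a median of 1.03. ABF3, for a bZIP factor of ABA responses, was at 254 and 266 CPM in seu-6 sorbitol, against 32.4 and 28.1 CPM in seu-6 mock (3.11 ± 0.0457, adjusted p = 3.7e-44). ABF2 rose by 1.62 ± 0.0586 and ABF1 by 1.02 ± 0.0461. SNRK2.2, a kinase gene, moved least, at 198 and 195 CPM under sorbitol, against 178 and 185 CPM in mock (0.12 ± 0.0363, adjusted p = 0.0051). Genes of ABA synthesis and breakdown rose in 10 of 11 cases, with a median of 1.78. NCED3, whose product catalyses the committed step of ABA synthesis under drought, was at 44.2 and 41.0 CPM in seu-6 sorbitol, against 2.33 and 1.62 CPM in seu-6 mock (4.43 ± 0.0994, adjusted p = 6.5e-44). ABA1, the zeaxanthin epoxidase gene, was at 528 and 530 CPM, against 152 and 156 CPM in mock (1.78 ± 0.0341). Of the 4 ABA 8′-hydroxylase genes, which break ABA down, CYP707A1 (2.33 ± 0.0883), CYP707A2 (1.80 ± 0.162) and CYP707A4 (1.83 ± 0.275) rose. CYP707A3 fell, at 8.36 and 10.3 CPM under sorbitol, against 13.6 and 15.7 CPM in mock (-0.65 ± 0.121, adjusted p = 5.9e-06).

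Stress NAC, MYB and HD-ZIP factor genes rose in 11 of 13 cases, with a median of 2.35. The homeodomain gene HB-7 (AT2G46680) was at 230 CPM in both seu-6 sorbitol libraries, against 13.1 and 15.2 CPM in seu-6 mock (4.02 ± 0.0488, adjusted p = 4.5e-57). NAC019 was at 37.9 and 36.3 CPM, against 4.43 and 4.44 CPM in mock (3.06 ± 0.0859), and RD26, another NAC factor, rose by 2.45 ± 0.0618. MYB96, a regulator of cuticular wax genes, rose by 1.72 ± 0.0788. MYB44 (MYBR1), at 48.7 and 49.5 CPM under sorbitol and 55.5 and 51.5 CPM in mock, and MYB15 were not called.

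Genes of compatible solutes changed in both directions. P5CS1, the rate-limiting enzyme of proline synthesis, was at 949 and 937 CPM in seu-6 sorbitol, against 36.5 and 36.0 CPM in seu-6 mock (4.70 ± 0.0385, adjusted p = 1.3e-67). The proline dehydrogenase gene ERD5, whose product degrades proline, was at 27.9 and 24.8 CPM, against 130 and 134 CPM in mock (-2.32 ± 0.0542, adjusted p = 4.6e-43). Sorbitol and mock values did not overlap for either gene. The second step of proline synthesis, P5CR, fell slightly (-0.28 ± 0.0438). GolS2, a galactinol synthase gene, was at 20.6 and 24.4 CPM under sorbitol, against 0.506 and 0.597 CPM in mock (5.34 ± 0.154), and GolS4 rose by 2.39 ± 0.0871. DIN10, a raffinose synthase family gene induced by darkness, was at 160 and 159 CPM, against 869 and 887 CPM in mock (-2.46 ± 0.0343, adjusted p = 2.3e-55). In all, 12 of the 16 listed solute genes rose and 4 fell, with a median of 0.73. Among 17 genes of sugar and starch handling 10 rose and 5 fell, against backgrounds of 28.9% and 29.0%. The sugar transporter gene SWEET15 (SAG29) was at 10.7 and 11.3 CPM, against 0.674 and 1.03 CPM in mock (3.69 ± 0.157), the sucrose synthase gene SUS3 rose by 2.31 ± 0.0820, and the sucrose carrier gene SUC1 was at 39.4 and 40 CPM, against 112 and 119 CPM in mock (-1.54 ± 0.0476). Of 6 genes of polyol handling tested 4 rose and 1 fell. INT2, an inositol transporter gene, was at 3.25 and 3.52 CPM, against 1.11 and 1.07 CPM in mock (1.63 ± 0.261, adjusted p = 2.2e-07), and INT1 rose by 0.58 ± 0.0747. The zinc-binding alcohol dehydrogenase family gene AT5G51970 was at 154 and 148 CPM, against 132 and 137 CPM in mock (0.16 ± 0.0394), and the polyol transporter gene PMT5 rose by 0.48 ± 0.0474.

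Of 19 aquaporin genes 6 were called higher and 7 lower, shares near the backgrounds of 28.9% and 29.0%. The tonoplast gene TIP2;1 (DELTA-TIP) was at 137 CPM in both seu-6 sorbitol libraries, against 461 and 466 CPM in seu-6 mock (-1.76 ± 0.0347, adjusted p = 3.1e-47). The plasma membrane gene PIP2;4 was at 13.2 and 12.8 CPM, against 48.0 and 44.7 CPM in mock (-1.83 ± 0.0767). PIP1;4 was at 170 and 171 CPM, against 114 and 110 CPM in mock (0.61 ± 0.0380). Falls thus reached farther than rises in this family, where the largest rise was that of PIP2;5 (0.73 ± 0.0918). Of 15 ion transport genes 9 rose and 5 fell, against the same backgrounds, with the share lower near 29.0%. NHX2, a vacuolar cation exchanger gene, rose by 1.6 ± 0.0754, and SKOR, for the channel that loads potassium into the xylem, was at 2.6 and 1.76 CPM, against 11.1 and 11.8 CPM in mock (-2.40 ± 0.166).

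Genes of the surface barrier rose, 13 of 15 tested, with a median of 1.08 and none lower. CER1, whose product makes wax alkanes, was at 66.3 and 65.7 CPM in seu-6 sorbitol, against 8.62 and 7.24 CPM in seu-6 mock (3.06 ± 0.0739, adjusted p = 2.5e-39). KCS2, for fatty acid elongation in suberin, was at 7.32 and 9.59 CPM, against 0.770 and 0.669 CPM in mock (3.55 ± 0.198). The 2 not called were CER2 and MYB94. Flavonoid and anthocyanin genes rose in 8 of 12 cases and fell in 2, or in 1 without mock replicate 2 or sorbitol replicate 1. LDOX, a late step of anthocyanin synthesis, was at 3.33 and 3.52 CPM under sorbitol, against 0.409 and 0.406 CPM in mock (3.06 ± 0.320). Chalcone synthase (TT4), the entry step, was at 63.0 and 65.5 CPM, against 79.1 and 72.7 CPM in mock (-0.24 ± 0.0533). Aliphatic glucosinolate genes rose in 12 of 15 cases, with a median of 0.32, and the regulator MYB29 rose by 1.69 ± 0.0983.

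The jasmonate list held 13 genes that rose and 5 that fell of 22 tested, with repressor and turnover genes in both directions. Of 8 synthesis genes, 7 rose and LOX4 was not called, and the output genes VSP1 and VSP2 rose. LOX2, a chloroplast lipoxygenase gene, was at 503 and 489 CPM in seu-6 sorbitol, against 72.6 and 80.5 CPM in seu-6 mock (2.70 ± 0.0396, adjusted p = 6.4e-50). VSP2, for a vegetative storage protein, was at 267 and 263 CPM, against 28.2 CPM in both mock libraries (3.23 ± 0.0439, adjusted p = 6.1e-56). The 5 that fell were the turnover gene CYP94C1 (-1.11 ± 0.13) and the repressor genes JAZ7 (-1.01 ± 0.435), JAZ8 (-2.67 ± 0.508), JAZ9 (TIFY7, -0.34 ± 0.0542) and JAZ10 (-0.64 ± 0.135). The repressor genes JAZ1, JAZ3 and JAZ12 rose, and the turnover gene CYP94B3 had a positive log2 fold change, given below. JAZ8 was at 0.260 and 0.297 CPM under sorbitol, against 1.90 and 1.70 CPM in mock. MYC2 is listed at 0 in all 4 libraries and was not tested. Of 18 salicylate and immune genes 7 rose, 2 fell and 9 were not called, against backgrounds of 28.9% and 29.0%. The count lower became smaller without mock replicate 2, sorbitol replicate 1 or sorbitol replicate 2. BGL2 was at 70.7 and 73.3 CPM under sorbitol, against 24 and 24.6 CPM in mock (1.57 ± 0.0793).

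Of 25 genes tested in the list of early ZAT, WRKY, DREB and ERF factors 9 rose and 7 fell. These shares were not far from the backgrounds of 28.9% and 29.0%. The list also holds the touch genes TCH3 and TCH4, which are not transcription factor genes and are among the 7 that fell. CBF3 (DREB1A), a cold-response factor, was at 9.69 and 8.79 CPM in seu-6 sorbitol, against 0.241 and 0.263 CPM in seu-6 mock (5.18 ± 0.221). WRKY53 rose by 2.09 ± 0.139 and DREB2A, a drought and heat factor, by 1.65 ± 0.136. WRKY18 was at 14.2 and 13.4 CPM, against 41.8 and 41.4 CPM in mock (-1.59 ± 0.0807). The touch gene TCH4 was at 25.6 and 24.4 CPM, against 119 and 124 CPM in mock (-2.28 ± 0.0543, adjusted p = 6.7e-43). Heat shock genes rose in 5 of 12 cases and fell in 2, against the same backgrounds. HSFA6A had 248 counts under sorbitol and 1 in mock, a ratio of 263 with a counting interval of 46.7 to 10400. HSP101, the large heat shock chaperone gene, was not called (-0.09 ± 0.13, adjusted p = 0.55).

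Genes of growth fell, most uniformly those of ribosome production and of the cell cycle. All 10 ribosome biogenesis genes were called lower, with a median of -1.11, against a background of 29.0%. NUC-L1, a nucleolin gene, was at 445 and 428 CPM in seu-6 sorbitol, against 906 and 922 CPM in seu-6 mock (-1.07 ± 0.0319, adjusted p = 1.3e-37). FIB2, for the nucleolar methyltransferase fibrillarin, was at 38.2 and 41.6 CPM, against 108 and 111 CPM in mock (-1.45 ± 0.0512). NOP56, of the same nucleolar particle, fell by 1.38 on the log2 scale. The values of these genes did not overlap between treatments. Of 24 DNA replication and mitosis genes 21 fell and none rose, with a median of -0.56. The helicase subunit gene MCM3 was at 18.4 and 19.5 CPM, against 33.2 and 32.5 CPM in mock (-0.80 ± 0.0777, adjusted p = 1.0e-13). The replication clamp gene PCNA1 fell by 0.96 on the log2 scale, MCM2 by 0.78 and the cytokinesis kinesin gene HIK by 0.78 as well. CYCB2;1, CYCB2;2 and CDKB1;1, genes of mitotic entry, were not called.

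Cell wall genes fell in 14 of 21 cases and rose in 6, with a median of -0.52. XTH4, which encodes an enzyme that cuts and rejoins xyloglucan, was at 54.1 and 55.2 CPM in seu-6 sorbitol, against 286 and 292 CPM in seu-6 mock (-2.40 ± 0.0379, adjusted p = 1.8e-52). The cellulose synthase gene CESA3 (CEV1) was at 332 and 337 CPM, against 464 and 494 CPM in mock (-0.52 ± 0.0337). The 6 genes that rose were XTH19 and the expansin genes EXPA3 (EXP3), EXPA4, EXPA8, EXPA11 and EXPA15, with log2 fold changes between 0.17 and 0.62. Of 21 auxin genes 7 were called higher and 7 lower, shares near the backgrounds of 28.9% and 29.0%. The count of lower genes was 4 without sorbitol replicate 1. The auxin carrier gene PIN7 was at 140 and 138 CPM, against 77.0 and 80.6 CPM in mock (0.82 ± 0.0387), and AUX1, for auxin influx, at 94.9 and 96.7 CPM, against 133 and 130 CPM in mock (-0.45 ± 0.0409). Type-A cytokinin response regulators fell in 5 of 6 cases, with ARR4 at 68.7 and 70.6 CPM, against 95.4 and 97.4 CPM in mock (-0.47 ± 0.0484), and ARR16 (RR16) rose.

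Light-harvesting genes rose while 3 Rubisco small subunit genes fell. Of 21 genes tested 18 were higher and 3 lower, with a median of 0.50. LHCB2.3 was at 695 and 685 CPM in seu-6 sorbitol, against 219 and 221 CPM in seu-6 mock (1.65 ± 0.0329, adjusted p = 4.9e-47). RBCS1B was at 58.2 and 61.6 CPM, against 188 and 189 CPM in mock (-1.65 ± 0.0470, adjusted p = 6.7e-37). RBCS2B (-0.57 ± 0.0319) and RBCS3B (-0.24 ± 0.0283) were the others lower, and LHCB1 members are close copies. All 9 senescence and starvation genes tested rose, with a median of 1.28, for example the chlorophyll b reductase gene NYC1 at 487 and 465 CPM, against 190 and 199 CPM in mock (1.29 ± 0.0352). Phosphate starvation genes rose in 10 of 15 cases and fell in 1. PAP17, an acid phosphatase gene, was at 59.8 and 59.7 CPM, against 6.21 and 7 CPM in mock (3.18 ± 0.0800).

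**Figure D3:**
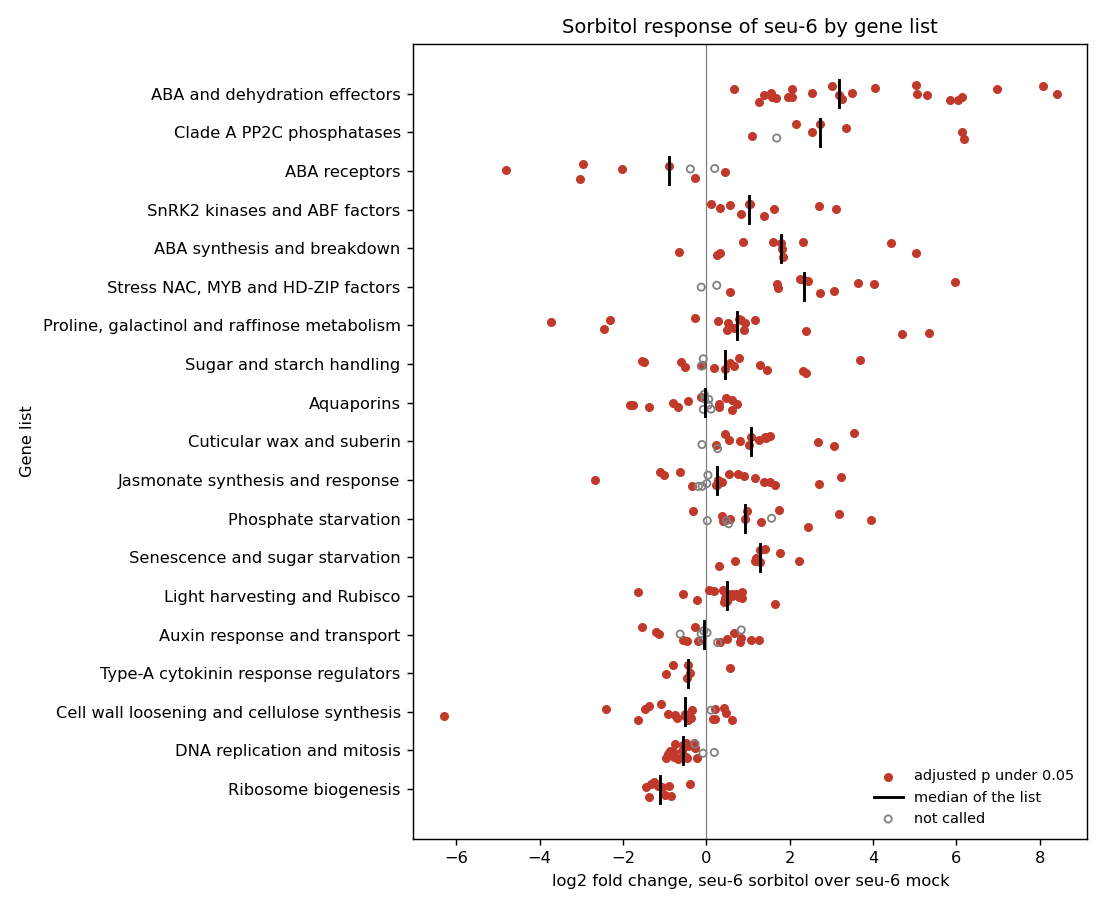
Log2 fold change of each tested member of 19 gene lists in seu-6, sorbitol over mock (points, filled where the edgeR adjusted p is under 0.05), with each list's median as a bar. EM1 and HAI3, at 0 in mock, are not drawn and enter the medians at their bounds. The effector list has its median at 3.17 and ribosome biogenesis at -1.11, and all points of ribosome biogenesis lie left of 0.

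Most of the response was shared with Col-0, whose 4 libraries are separate. Sorbitol raised 6777 genes (31.3%) and lowered 6739 (31.2%) in Col-0. Of the genes called higher in seu-6, 5334 were also called higher in Col-0, which is 85.3% of the seu-6 list and 78.7% of the Col-0 list. Of those called lower in seu-6, 5226 were also lower in Col-0, 83.2% of the seu-6 list and 77.5% of the Col-0 list. Another 75 genes higher in seu-6 were lower in Col-0, and 74 went the other way. Genes called in seu-6 and not in Col-0 numbered 846 higher and 984 lower. The difference between the responses itself passed the test for only 144 and 133 of these. Among genes shared in direction, the difference was called for 1184 of the 5334 higher and 705 of the 5226 lower. Over all genes the difference, tested as the interaction, was called for 2812, with the log2 fold change higher in seu-6 than in Col-0 for 1216 (5.62%) and lower for 1596 (7.38%).

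Most ABA outputs rose in seu-6 by less than in Col-0. The difference was called for 19 effector genes as lower and 1 as higher of 25, against backgrounds of 7.38% and 5.62%. KIN2, a small hydrophilic stress protein gene, was at 1014 and 978 CPM in seu-6 sorbitol and 245 and 266 CPM in seu-6 mock, and at 1208 and 1180 CPM in Col-0 sorbitol and 191 CPM in both Col-0 mock libraries. The log2 fold change of KIN2 was 1.96 in seu-6 and 2.64 in Col-0, a difference of -0.68 ± 0.0471 (adjusted p = 9.8e-18). P5CS1 reached 949 and 937 CPM in seu-6 sorbitol and 1831 and 1801 CPM in Col-0 sorbitol, a difference of -0.61 ± 0.0499 (adjusted p = 3.6e-15). COR15B was the effector with the larger response in seu-6 (0.49 ± 0.0829, adjusted p = 7.7e-06). The same direction held for 7 of 9 PP2C genes, for 6 of 10 SnRK2 and ABF genes and for 9 of 13 NAC, MYB and HD-ZIP genes, with none called the other way. HAI2 was at 20.6 and 21.2 CPM in seu-6 sorbitol and 56.2 and 55.0 CPM in Col-0 sorbitol (difference -2.44 ± 0.439, adjusted p = 2.6e-05). In mock HAI2 was at 0.289 and 0.287 CPM in seu-6 and 0.138 and 0.141 CPM in Col-0. NAC019 was at 37.9 and 36.3 CPM in seu-6 sorbitol and 92.1 and 89.1 CPM in Col-0 sorbitol (-1.94 ± 0.137, adjusted p = 1.3e-17). TSPO, for a stress-induced membrane protein, was at 18.9 and 17.7 CPM in seu-6 sorbitol and 44.3 and 39.8 CPM in Col-0 sorbitol, and was listed at 0 in both Col-0 mock libraries. Of the ABA synthesis genes NCED3 had no called difference (adjusted p = 0.42). NCED3 was at 44.2 and 41.0 CPM in seu-6 sorbitol and 2.33 and 1.62 CPM in seu-6 mock, and at 103 and 108 CPM in Col-0 sorbitol and 4.15 and 4.26 CPM in Col-0 mock.

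Sugar genes followed the ABA outputs, with 12 of 17 differences called as lower and 2 as higher. SWEET15 (SAG29) was at 10.7 and 11.3 CPM in seu-6 sorbitol and 45.7 and 46.0 CPM in Col-0 sorbitol (difference -3.44 ± 0.304, adjusted p = 7.4e-14). Wax and suberin genes had 8 lower and 1 higher of 15. CER3, a wax gene, was at 87.2 and 88.9 CPM in seu-6 sorbitol and 149 CPM in both Col-0 sorbitol libraries (-0.94 ± 0.0638, adjusted p = 2.3e-18). The jasmonate turnover gene CYP94B3 had a log2 fold change of 1.53 in seu-6 and 3.87 in Col-0 (difference -2.34 ± 0.159, adjusted p = 3.2e-18).

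Auxin, cytokinin and cell wall genes differed mostly in the other direction. Of 21 auxin genes 10 had a higher response in seu-6 and 1 a lower one, against backgrounds of 5.62% and 7.38%. In Col-0 13 of the 21 fell and 3 rose. IAA29, an auxin repressor gene, was at 3.98 and 3.34 CPM in seu-6 sorbitol and 2.33 and 2.32 CPM in seu-6 mock, and at 12.3 and 13.1 CPM in Col-0 sorbitol and 24.1 and 27.6 CPM in Col-0 mock. The difference of IAA29 was 1.68 ± 0.193 (adjusted p = 5.0e-10). In cell wall genes 8 differences were higher and 3 lower of 21, and 18 of the 21 fell in Col-0. EXPA8 was at 21.6 and 21.3 CPM in seu-6 sorbitol and 15.0 and 12.8 CPM in seu-6 mock, and at 9.88 and 9.76 CPM in Col-0 sorbitol and 16.4 and 16.8 CPM in Col-0 mock (difference 1.38 ± 0.140, adjusted p = 9.4e-12). XTH33 was one of the 3 with a lower response, at 0.026 and 0.149 CPM in seu-6 sorbitol and 7.03 and 7.43 CPM in seu-6 mock, and at 0.504 and 0.696 CPM in Col-0 sorbitol and 6.23 and 6.02 CPM in Col-0 mock (difference -2.96 ± 0.535). With 1 and 6 counts under sorbitol, its log2 fold change in seu-6 of -6.30 was -5.58 without sorbitol replicate 1 and -7.95 without sorbitol replicate 2. Of 6 cytokinin response regulators 4 had a higher response in seu-6, with ARR4 at -0.47 in seu-6 and -1.21 in Col-0 (difference 0.74 ± 0.0706, adjusted p = 1.2e-12). Ribosome biogenesis genes had 4 higher differences of 10. DNA replication and mitosis genes had only 2 of 24, a share near the background of 5.62%, and the other 22 were not called. Light-harvesting and Rubisco genes had 10 higher and 1 lower of 21, with RBCS1B at 0.61 ± 0.0689.

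**Figure D4:**
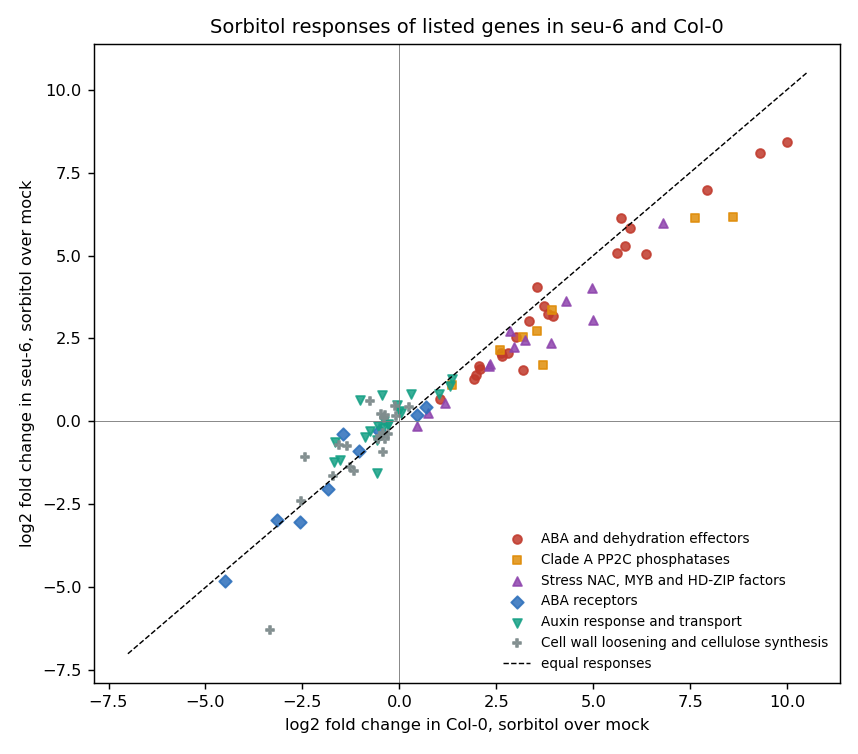
Log2 fold change, sorbitol over mock, in seu-6 (vertical axis) and Col-0 (horizontal axis) for the members of 6 gene lists, with a dashed line of equal responses. TSPO, EM1 and HAI3, at 0 in a mock group, are not drawn. Most effector, PP2C and stress factor genes lie below the line, and most auxin genes lie above it.

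The same genotype under NaCl for 15 min gave a different pattern, though agent, time, age and mock all differ and no difference was tested. NaCl was called to raise 2654 genes (12%) and lower 3950 (17.9%) of 22066 tested. Of 6202 genes higher under sorbitol and tested in both, 655 (10.6%) were higher and 1683 (27.1%) lower under NaCl, and the 655 are 28.4% of the NaCl list. Of 6202 lower under sorbitol, 1090 were lower and 823 (13.3%) higher under NaCl, and the 1090 are 27.9% of the NaCl list. The shares of 28.4% and 27.9% do not exceed the sorbitol backgrounds of 28.9% and 29.0%, so they show no excess of shared genes. Against the NaCl backgrounds, 10.6% lies below 12% and 27.1% above 17.9%, while 13.3% is near 12%. Of 23 effector genes tested under NaCl 2 rose and 10 fell. RD29B had a log2 fold change of 8.08 after sorbitol and of -0.29 after NaCl (adjusted p = 0.60), and P5CS1 of 4.70 and -0.44 (adjusted p = 7.5e-14). Of 22 jasmonate genes 21 fell under NaCl and none rose. The synthesis gene AOS had 0.90 after sorbitol and -1.01 after NaCl. The receptor genes PYL4, PYL5 and PYL6 fell under both, by 2.97, 3.04 and 4.81 under sorbitol and by 0.36, 0.73 and 1.13 under NaCl. NCED3 rose under both (4.43 and 1.22).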

How the data were processed

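Poly(A) RNA of whole seedlings was sequenced after Trizol extraction, DNA digestion and NEXTflex library preparation, per the labels' protocols. The deposited values are raw read counts per gene. The submitters' processing notes name the TAIR10 genome, HISAT2 2.2.1, HTSeq 0.13.5 and DESeq2. Neither the strand setting nor the annotation release is given in these sources, so overlapping genes cannot be told apart. Symbols came from RefSeq (TAIR10.1).

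Rows that name no gene, 8.78% to 12.74% of the reads of a library, were left out. The 16 libraries held 39756463 to 42676953 gene counts. The 8 libraries of the 6 h experiment were fitted together in edgeR 4.0.16 (R 4.3.3, limma 3.58.1) with TMM scaling, a filter on low counts (at least 10 per library scaled by depth and 15 in total) and the robust quasi-likelihood test, which leaves 4 residual degrees of freedom. The 8 libraries of the 15 min experiment were fitted and scaled separately. CPM values use the scaled library size. The SE was taken as the size of the log2 fold change divided by the square root of the F statistic, and p was adjusted by Benjamini-Hochberg over all genes tested, with calls below 0.05. Intervals and floors cover counting error only.

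The members and gene lists were chosen with earlier results of these data known. Genes named by rule were the 12 steepest rises and 12 steepest falls (called, average log2 CPM of at least 2, no overlap), up to 5 members per list by adjusted p, the 12 smallest p of the difference between the responses, and SEU and its relatives. Other list members named were chosen after their values were seen. As alternatives, the data were also run through DESeq2 1.42.0, with DESeq2 scaling inside edgeR, without the filter, with a replicate block, with other sets of libraries and without each library in turn.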

Additional observations from a re-analysis of the deposited data

Results flagged for a closer look

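The response to sorbitol differed between seu-6 and Col-0, by edgeR's test of the difference, for 1216 genes with a higher and 1596 genes with a lower response in seu-6. The 12 genes of smallest p follow, with differences in log2 fold change, seu-6 minus Col-0, and an adjusted p of 3.5e-21 or less each. ESM1, epithiospecifier modifier 1, differed by 0.864, with 1287 and 1273 CPM in seu-6 sorbitol and 401 and 397 CPM in seu-6 mock, and 1206 and 1215 CPM in Col-0 sorbitol and 689 and 685 CPM in Col-0 mock. Its sorbitol levels were close in both genotypes, and its mock levels were lower in seu-6.

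AT1G24996, whose product is uncharacterized, differed by 3.32, a call lost when all 16 libraries were fitted together (adjusted p = 0.39). It was at 3.44 and 3.84 CPM in seu-6 sorbitol and 3.80 and 3.46 CPM in seu-6 mock, and at 4.41 and 5.86 CPM in Col-0 sorbitol and 52.3 and 50.4 CPM in Col-0 mock. Only the Col-0 mock libraries were high.

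Differences toward a higher response in seu-6 were 1.1 for FTM1, 1.05 for the hemoglobin gene HB1 and 1.17 for the major facilitator gene AT4G34950, and all of these fell in both genotypes. They were 0.962 for the 6-phosphogluconate dehydrogenase family gene AT5G41670 and 0.971 for the methyltransferase gene AT1G73600, which had positive log2 fold changes in seu-6 (0.41 and 0.41) and negative ones in Col-0 (-0.55 and -0.56). Differences toward a lower response were -1.15 for the MATE efflux gene AT4G21910, -0.904 for AT3G62550, -0.845 for AT4G33150 and -1.08 for ECS1, which rose in both genotypes, and -0.874 for BT1, which fell in both.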

How the results depend on the processing

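The counts over all genes called in each comparison stayed within 1.5 times under every alternative run. Of 1080 list values computed under the alternatives, 65 moved (37 counts of members called and 28 medians, in 17 of 36 lists). Leaving out 1 library at a time gave 5501 to 5599 genes higher and 5390 to 5548 lower in seu-6, 6160 to 6216 and 6025 to 6098 in Col-0, 903 to 1068 and 1178 to 1413 in the difference, and 1801 to 2129 and 3165 to 3437 for NaCl. The lone library of a group was then assumed to vary like the others. DESeq2 called 5951 higher and 5599 lower in seu-6. Replicate numbers did not pair the samples (correlation of deviations 0.0714 between seu-6 sorbitol and mock, 2 numbers). With the replicate number as a block, 6222 genes were higher and 6220 lower in seu-6, 1176 and 1550 in the difference, and 2627 and 3949 for NaCl.

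The log2 fold change of AT1G24996 in seu-6, not called, changed sign to -0.0126 with all 16 libraries, -0.0627 without seu-6 mock replicate 2 and -0.0735 without seu-6 sorbitol replicate 2. That of SEU, also not called, became 0.0862 without seu-6 mock replicate 1 and 0.183 without seu-6 sorbitol replicate 2. Leaving out 1 library at a time gave -0.0735 to 0.0751 for AT1G24996 and -0.452 to 0.183 for SEU. The cause was not tested. Named genes that lost their call under some alternative included SHR, MUTE, KNAT1, GA2OX2 and LUG.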
